A study of Homo sapiens with 6 samples.

Results

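The genes that encode the proteasome were examined for accessible promoters in bulk ATAC-seq of fixed GM12878 cells. Members were taken by symbol: every autosomal protein-coding gene of the GENCODE annotation on hg19 whose name starts with PSMA, PSMB, PSMC, PSMD, PSME, PSMF or PSMG followed by a digit. This gave 49 genes of 19229 autosomal protein-coding genes. Of the 49 genes, 47 encode subunits, activators, an inhibitor or assembly chaperones. The other 2, PSMC3IP and PSME3IP1, are not parts of the complex: PSMC3IP acts in meiotic recombination and PSME3IP1 binds the nuclear activator PSME3. PSMD10 lies on the X chromosome and was outside the rule.

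GM12878 is a human B-lymphoblastoid cell line transformed with Epstein-Barr virus. Cells of all 6 libraries were fixed in 1% PFA and carried no further treatment or antibody stain. The 3 protocols differed in how the transposed DNA was released from the fixed protein at 65 °C, with 2 replicate libraries each: a buffer with SDS followed by DNA purification (SDS), a buffer without SDS followed by purification (SDS-free), and the same SDS-free buffer added directly to the PCR (SDS-free unpurified), which is the bulk form of Pi-ATAC. That the first 2 protocols included purification comes from the methods and figure legends, not from the sample labels. Per the methods, the buffers also differed in salt, EDTA and other detergents, so SDS and SDS-free name whole buffers and not SDS alone. All libraries came from 1 cell line, and nothing in the labels says that replicates were separate cultures. P-values therefore measure the spread between these libraries, which may be technical.

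The proteasome degrades ubiquitin-tagged proteins and supplies peptides for MHC class I presentation. Its 20S core is a barrel of alpha and beta rings, and the 19S cap, built of ATPases and non-ATPase subunits, recognises, unfolds and feeds in the substrate. In lymphoid cells and after interferon, the constitutive catalytic subunits PSMB5, PSMB6 and PSMB7 are exchanged for PSMB8, PSMB9 and PSMB10 to form the immunoproteasome, while PSMB11 replaces PSMB5 in the thymic cortex and PSMA8 replaces PSMA7 in the testis. Most subunit genes are expressed in every cell type, and the factors NFE2L1 and NFE2L2 raise them together through antioxidant response elements.

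The upstream sequences of 5 catalytic genes are shown to give the response letters that lie before constitutive and immunoproteasome subunits. The comparison of their peaks rests on fold enrichment and not on these letters. Each run holds the 200 bases that end just before the start of the Ensembl canonical transcript, on the sense strand of the gene, in hg19. Capitals mark matches to GAAA, any 2 bases and GAAA again (interferon response), TGANNNNGC (antioxidant response), CCGGAAG (ETS factors) and CCAAT, where N is any base, on either strand.
PSMB5, chr14:23504110-23504309, minus strand: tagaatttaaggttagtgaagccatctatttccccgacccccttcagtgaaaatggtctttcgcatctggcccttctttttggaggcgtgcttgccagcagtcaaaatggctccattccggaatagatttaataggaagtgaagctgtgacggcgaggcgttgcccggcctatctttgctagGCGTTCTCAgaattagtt
PSMB6, chr17:4699259-4699458, plus strand: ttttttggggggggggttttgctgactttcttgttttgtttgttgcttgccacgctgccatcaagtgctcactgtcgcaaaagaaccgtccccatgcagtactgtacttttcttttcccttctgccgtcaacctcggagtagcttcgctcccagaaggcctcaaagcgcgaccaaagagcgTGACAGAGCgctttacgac
PSMB7, chr9:127177722-127177921, minus strand: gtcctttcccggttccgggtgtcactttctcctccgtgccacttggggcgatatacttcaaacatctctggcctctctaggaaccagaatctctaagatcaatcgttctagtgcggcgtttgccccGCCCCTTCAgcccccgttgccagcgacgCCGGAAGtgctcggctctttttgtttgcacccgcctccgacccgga
PSMB9, chr6:32821769-32821968, plus strand: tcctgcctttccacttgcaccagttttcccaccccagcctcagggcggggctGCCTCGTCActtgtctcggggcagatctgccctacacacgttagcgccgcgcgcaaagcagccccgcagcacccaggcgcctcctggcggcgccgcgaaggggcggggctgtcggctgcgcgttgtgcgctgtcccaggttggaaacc
PSMB10, chr16:67970754-67970953, minus strand: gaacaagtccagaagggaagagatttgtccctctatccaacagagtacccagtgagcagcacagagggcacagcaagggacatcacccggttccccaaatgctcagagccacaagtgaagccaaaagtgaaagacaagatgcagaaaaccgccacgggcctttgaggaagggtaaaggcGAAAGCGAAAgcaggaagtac
PSMB10 held an interferon match and no antioxidant match in its 200 bases. The reverse was true of PSMB5, PSMB6, PSMB7 and PSMB9. PSMB8, which is not printed at this length, held both, with an interferon match across its start and an antioxidant match at positions −195 to −187 from it.

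The interferon letters occurred in 6 of the 49 members, counted in the 300 bases from 250 before to 50 after the canonical start. Besides PSMB10 these were the immunoproteasome gene PSMB8, the genes PSME1 and PSME2 of the interferon-induced activator PA28, the assembly chaperone PSMG4 and the structural subunit PSMB4. Their matches are shown with 10 bases on each side.
PSMB8, chr6:32811809-32811838, minus strand: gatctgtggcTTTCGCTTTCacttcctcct
PSME1, chr14:24605398-24605427, plus strand: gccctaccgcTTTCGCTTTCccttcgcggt
PSME2, chr14:24615828-24615857, minus strand: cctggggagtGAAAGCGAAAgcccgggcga
PSMG4, chr6:3259138-3259167, plus strand: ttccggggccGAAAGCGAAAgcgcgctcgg
PSMB4, chr1:151371971-151372000, plus strand: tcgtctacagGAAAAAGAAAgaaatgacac
In 5 of these 6 genes, all but PSMB4, the match read GAAAGCGAAA on the sense or the opposite strand. These exact letters were looked for after the matches had been seen, and 33 of 19225 promoters (0.172%) held them around the canonical start. Around the gene start 24 of 19225 promoters (0.125%) held them, among them 3 members, PSMB9, PSMB10 and PSME1. The PSMB9 match is the site printed for PSMB8 (chr6:32811819-32811828), which falls in the window of the outermost PSMB9 start. Around its canonical start PSMB9 held no interferon match.

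GM12878 peaks were first read against lineage genes. In all 6 libraries a peak lay within 1 kb of the gene start of MS4A1, which encodes the B-cell antigen CD20, with a fold enrichment of 5.88 to 8.44. It was the single B-cell marker of 7 with a peak at the gene start in all 6 libraries. CD79A had one in 4 libraries, SPIB in 2, CD79B and PAX5 in 1 each, and CD22 in none. POU2AF1 had a peak in all 6 libraries at the start of its canonical transcript and in none at its gene start. No erythroid, hepatocyte or keratinocyte marker of 9 had a peak in any library. Of 5 T-cell markers, CD8A had a peak in all 6 libraries at its gene start but in none at its canonical start, and the others had none. Of the neuronal markers, SNAP25 had a peak at its canonical start in 4 libraries and NEFL had none.

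Accessible promoters were more common among proteasome genes than among protein-coding genes at large. A peak in all 6 libraries within 1 kb of the gene start was found for 34 of the 49 genes (69.4%), against 41.0% of all autosomal protein-coding genes. A peak in at least 1 library was found for 42 genes (85.7%), against 55.4% of all genes, and 7 genes (14.3%) had none, against 44.6%. No test was made of these shares, since the members are a set of genes and not replicates. The gene start is the outermost annotated start, and for some members it lies far from the Ensembl canonical start. With the start of the Ensembl canonical transcript, a choice added after the data were examined, 39 genes (79.6%) had a peak in all 6 libraries, against 43.4% of all genes, and 3 (6.12%) had none, against 41.6%.

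**Figure D1:**
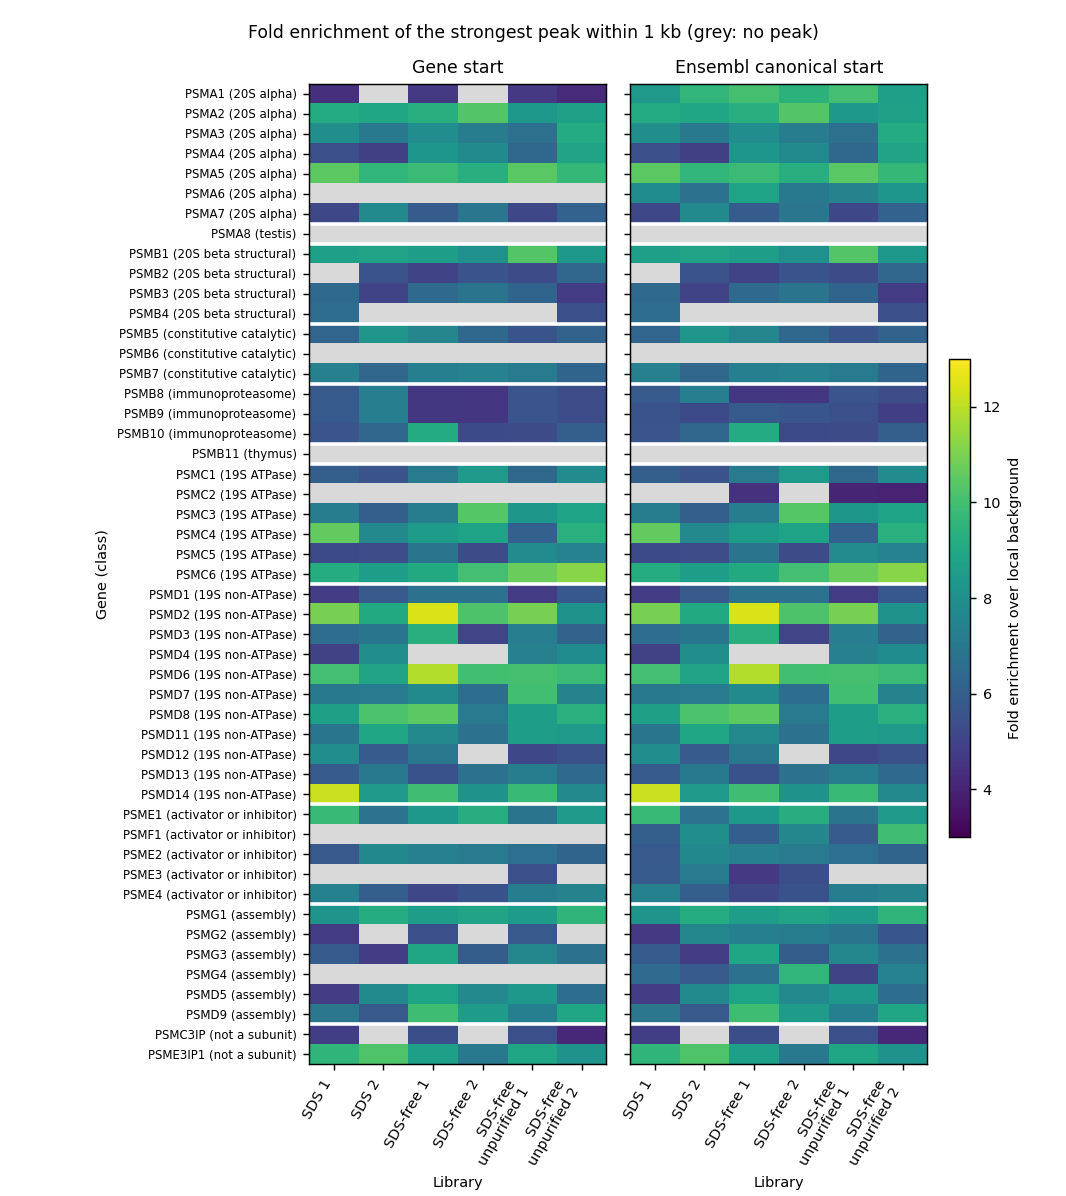
Fold enrichment of the strongest peak within 1 kb of the gene start (left) and of the Ensembl canonical start (right), as a colour from 3 to 13, for 49 genes (rows, with their class) in 6 libraries (columns; 1 and 2 are replicates). Grey marks no peak: 7 genes are grey in all 6 libraries on the left and 3 on the right.

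Of the 7 genes with no peak at the gene start, 4 had peaks at the canonical start, as the map of peaks by gene and library shows. PSMA6, an alpha-ring subunit, PSMF1, which encodes the proteasome inhibitor PI31, and PSMG4 had no peak at the gene start and a peak in all 6 libraries at the canonical start, which lay 13749, 5362 and 27544 bp downstream. PSMA1, an alpha-ring subunit, and PSMG2, an assembly chaperone, went from 4 and 3 libraries to all 6, with canonical starts 123249 and 44999 bp downstream. PSMC2, a 19S ATPase, went from none to 3 libraries, and PSME3, the nuclear activator PA28 gamma, from 1 to 4.

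3 genes had no peak within 1 kb of either start in any library. PSMB6, a constitutive catalytic subunit on chromosome 17, had its nearest peak 5604 to 10686 bp from the gene start. PSMA8, the testis subunit on chromosome 18, had its nearest peak 33642 to 33799 bp away, and PSMB11, the thymus subunit on chromosome 14, had its nearest peak 6703 to 6892 bp away. PSMB6 and the tissue-restricted PSMA8 and PSMB11 thus gave the same reading in these lists. Absence from a list says that no peak was called, not that the promoter was closed.

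Members found in part of the libraries had fewer reads at the summit than those found in all. The caller, MACS2, sets the reads at a summit against a local background, and each of these numbers was solved for from the fold enrichment and p-value, to within 0.001 in the −log10 p for 100% of the peaks of each library. The weakest peaks of the 6 libraries had 8 or 9 reads at the summit, and the median peak had 20 to 22. The lowest background, which scales with depth, was between 1.51 and 1.86 reads, so that the deepest library had 1.24 times the depth of the shallowest. The 8 members with a gene-start peak in 1 to 5 libraries had a median of 16 reads at the summit (12 to 26). The 34 members with a peak in all 6 had a median of 29 (12 to 95).

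PSMB4, a structural beta subunit, had a peak in SDS replicate 1 with 19 reads at the summit (95% Poisson interval 11.4 to 29.7) and in SDS-free unpurified replicate 2 with 17 reads (9.90 to 27.2), and in no other library. These intervals cover counting error only. PSMB2, another structural beta subunit, lacked a peak in SDS replicate 1 alone. PSMD12, a 19S lid subunit, lacked one in SDS-free replicate 2 alone, and PSMC3IP in replicate 2 of both the SDS and the SDS-free protocol. The strongest PSMC3IP peak was not at the same place in each library. Its summit lay 52 bp downstream of the gene start in SDS replicate 1 and 739 to 1012 bp upstream in the others with a peak. Within 500 bp of the canonical start of PSMC3IP a peak was called in 2 libraries. PSME3 at its canonical start had 15 and 17 reads with SDS and 11 and 14 reads with the SDS-free buffer, and no peak in either unpurified library. PSMC2 at its canonical start had 25 reads in SDS-free replicate 1, and 24 and 22 reads in the unpurified libraries, with a fold enrichment of 3.97 to 4.44, which includes the lowest value of any member at that start.

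The share of members with a gene-start peak was 81.6% and 75.5% in SDS replicates 1 and 2, where 48.2% and 46.6% of all genes had one. It was 79.6% and 71.4% with the SDS-free buffer, against 50.03% and 47.0%. In the unpurified libraries it was 83.7% and 81.6%, against 49.7% and 49.5%. Both unpurified libraries were above both SDS-free libraries and at or above both SDS libraries, while the SDS and SDS-free libraries overlapped. By the lowest background, the unpurified libraries were also the deepest, at 1.765 and 1.86 reads. The SDS libraries had 1.743 and 1.522 reads, and the SDS-free libraries 1.575 and 1.506. Depth and protocol therefore cannot be told apart in this order, and the part of depth was not tested. SDS-free minus SDS was −3.06 percentage points, SDS-free unpurified minus SDS was 4.08, and unpurified minus purified SDS-free was 7.14 (exact permutation p = 0.667, 0.667 and 0.333, two-sided, and 0.667 each after Benjamini-Hochberg adjustment over the 3). With 2 libraries against 2 the smallest possible p is 0.33. Without SDS-free replicate 2, the library with the fewest peaks (30136), the first difference was 1.02 points, and without SDS replicate 1 it was 0 points. Unpurified minus SDS was 1.02 points without SDS replicate 2 and 7.14 without SDS replicate 1. Unpurified minus purified SDS-free was 3.06 without SDS-free replicate 2 and 11.2 without SDS-free replicate 1. At the canonical start, replicate 1 of each protocol stood at 89.8%, so the unpurified libraries were not all above the SDS-free ones. There SDS-free minus SDS was −2.04 points, unpurified minus SDS 2.04 and unpurified minus purified SDS-free 4.08.

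**Figure D2:**
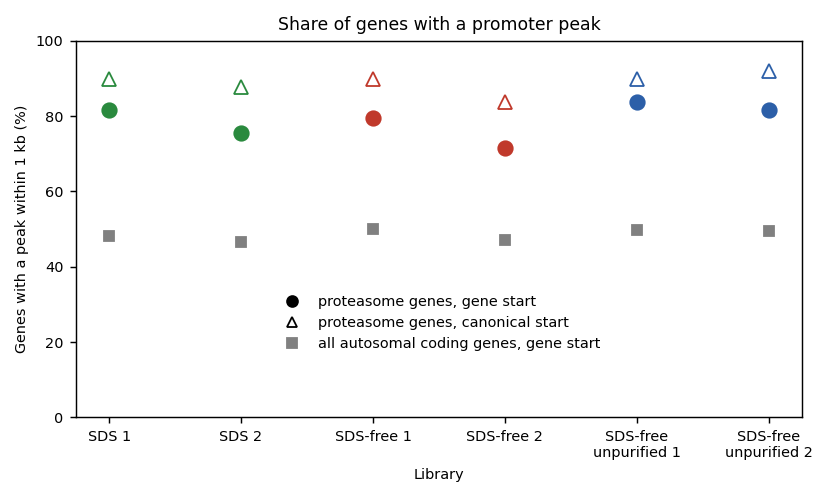
Percent of genes with a peak within 1 kb of the start (vertical axis) in each of the 6 libraries, for the 49 proteasome genes at the gene start (filled circles) and the canonical start (open triangles) and for all 19229 genes at the gene start (grey squares). The proteasome genes lie between 71.4% and 83.7% at the gene start, and all genes between 46.6% and 50.03%.

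The enrichment of called promoters was close to that of other genes. The median fold enrichment over local background, averaged on the log2 scale across libraries, was 7.40 for the 34 members with a peak in all 6 and 7.41 for all 7889 such genes. Per library, the median over members with a peak was 6.74 to 7.77, against 6.95 to 7.34 for all genes with a peak, and members were higher except in SDS replicate 1 (6.74 against 7.02). Their median reads at the summit were fewer in every library, 23.5 to 29 against 29 to 34. Peaks were of similar width, with medians of 511 to 625 bp per library for members and 561 to 650.5 bp for all genes.

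Among the subunit classes, both parts of the 19S cap had the highest median fold enrichment. The ATPases PSMC1 to PSMC6 had a median of 7.87 over the 5 of 6 genes with a peak in all libraries. The non-ATPase subunits had 7.84 over 9 of 11. The alpha ring had 7.61 over 5 of 7 (all 7 at the canonical start), the structural beta subunits 7.19 over 2 of 4, and the assembly chaperones 7.48 over 4 of 6 (all 6 at the canonical start). The activators and the inhibitor had 6.78 over 3 of 5, the constitutive catalytic subunits 6.78 over 2 of 3, and the immunoproteasome subunits 5.49 over all 3, of which PSMB8 and PSMB9 share 1 peak. These classes hold few genes, and no test between them was made.

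Among the 34 members with a peak in all 6 libraries, PSMD2, PSMD6 and PSMA5 were at the top. PSMD2, the scaffold of the 19S base, had a fold enrichment of 10.95 and 9.09 with SDS, 12.4 and 10.2 with the SDS-free buffer, and 10.95 and 8.09 without purification. PSMD6, a lid subunit, had 10.0 and 8.84, 11.8 and 9.96, and 10.1 and 9.80 in the same order. PSMA5, an alpha-ring subunit, had 10.5 and 9.60, 9.83 and 9.31, and 10.4 and 9.68. The protocols overlapped for each of these genes. At the bottom of the same 34, PSMD1, the other large scaffold of the base, had 4.81 and 5.80, 6.77 and 6.73, and 4.75 and 5.75. Its SDS-free libraries were above the other 4. PSMB8 and PSMB9 were the other lowest of the 34.

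At the gene start, PSMB8 and PSMB9 had identical values because 1 peak served both. The outermost start of PSMB9 (position 32811913 on chromosome 6) lies within PSMB8, whose gene start is at 32812456 on the other strand. In SDS replicate 2 this peak ran over chr6:32812343-32812679. Its fold enrichment was 5.82 and 7.28 with SDS, 4.64 and 4.59 with the SDS-free buffer, and 5.64 and 5.36 without purification, so that the SDS-free libraries were lowest and the SDS libraries highest, with no overlap between protocols.

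The canonical start of PSMB9 lies 10056 bp downstream, 488 bp from that of TAP1, which runs the other way and encodes a subunit of the transporter that carries peptides into the endoplasmic reticulum. There PSMB9 and TAP1 shared a peak in every library, with a fold enrichment of 5.58 and 5.26 with SDS, 5.84 and 5.68 with the SDS-free buffer, and 5.45 and 4.84 without purification. Its summit lay 7 to 462 bp upstream of the PSMB9 start. Accessibility at this site therefore cannot be told apart between both genes.

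PSMB10 had 5.63 and 6.31 with SDS, 9.13 and 5.23 with the SDS-free buffer, and 5.29 and 6.05 without purification. SDS-free replicate 1 stood above the other 5 libraries. In all 6 libraries the summit of this peak lay inside the gene, 1061 to 1151 bp downstream of the canonical start, and the peak reached the 1 kb window with its edge. A peak within 500 bp of the PSMB10 start was called in 1 library. No peak covered the interferon match at chr16:67970765-67970774 in any library. At PSMB8 the summit lay 602 to 842 bp upstream of the canonical start, and no peak covered the match at chr6:32811819-32811828. At PSME1, PSME2 and PSMG4 a peak covered the match in all 6 libraries, and at PSMB4 in the 2 libraries with a peak.

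PSMB5, PSMB7 and PSMA7 had peaks at their starts, and PSMB6 had none. PSMB5 had a fold enrichment of 6.25 and 8.21 with SDS, 7.56 and 6.34 with the SDS-free buffer, and 5.59 and 6.18 without purification, with summits 0 to 256 bp upstream. PSMB7 had 7.35 and 6.29, 7.32 and 7.43, and 7.14 and 6.22, with summits 31 to 120 bp upstream. PSMA7, the counterpart of the testis subunit PSMA8, had 5.18 and 7.76, 5.92 and 6.94, and 5.16 and 6.15. All 3 protocols overlapped for PSMA7. At PSMB7 both SDS-free libraries were above both unpurified ones, with SDS overlapping each, and at PSMB5 both unpurified libraries were lowest.

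**Figure D3:**
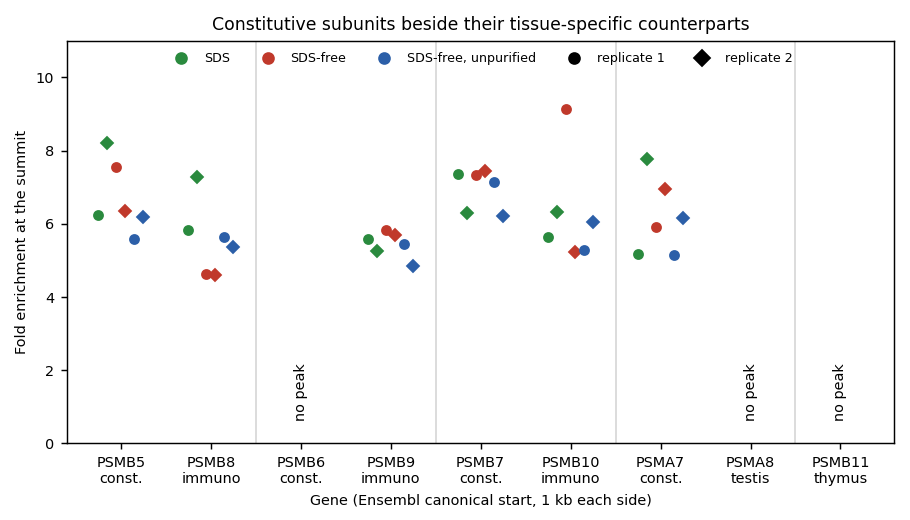
Fold enrichment of the strongest peak within 1 kb of the canonical start (vertical axis, from 0) for constitutive subunits (const.) and the immunoproteasome, testis and thymus subunits, with 1 point a library, coloured by protocol (circle, replicate 1; diamond, replicate 2). PSMB6, PSMA8 and PSMB11 have no peak, and PSMB8 and PSMB9 lie at 7.28 or below.

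The immunoproteasome median minus the constitutive median, on the log2 fold enrichment scale, was −0.31 ± 0.27 (SD, n = 6 libraries) at the gene start. There PSMB8 and PSMB9 carry the same peak, so the median of the 3 immunoproteasome genes is the value of that 1 peak, set against PSMB5 and PSMB7. The difference was −0.22 and 0.02 with SDS, −0.68 and −0.58 with the SDS-free buffer, and −0.16 and −0.21 without purification, so that 5 of 6 libraries were negative. At the canonical start, where PSMB9 has a value of its own, it was −0.27 ± 0.08 and negative in 6 of 6 libraries. There the immunoproteasome median came from different peaks by library. It was the PSMB10 peak, whose summit lies inside the gene, the PSMB9 peak shared with TAP1, or the PSMB8 peak. PSMB6 had no peak and entered neither median, so the constitutive side rests on PSMB5 and PSMB7. From the reads at the summit in place of fold enrichment the difference was −0.07.

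PSME1 and PSME2, which form the activator PA28, had peaks in all 6 libraries at both starts. PSME1 had a fold enrichment of 9.77 and 6.81 with SDS, 8.33 and 9.24 with the SDS-free buffer, and 6.84 and 8.38 without purification. PSME2 had 5.80 and 7.66, 7.36 and 7.14, and 6.67 and 6.24. The protocols overlapped for PSME1. At PSME2 both SDS-free libraries were above both unpurified ones, and the SDS libraries lay on either side. PSME4, the activator PA200, had 7.41 and 6.04, 5.17 and 5.52, and 7.23 and 7.48, and its SDS-free libraries were the lowest. PSMF1 at its canonical start had 6.02 and 7.95, 6.0 and 7.62, and 5.92 and 9.95.

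Differences between protocols were tested for the 7889 genes with a peak in every library, 34 members included, on the log2 fold enrichment. limma with Benjamini-Hochberg adjustment called no gene in any of the 3 comparisons at an adjusted p under 0.05 (0 of 7889, 0%). At an unadjusted p under 0.05 it gave 6 members of 34 for SDS-free against SDS (5 peaks, since PSMB8 and PSMB9 share 1), where 6.11% of all genes passed, 2 members for unpurified against SDS, where 5.48% passed, and 2 for unpurified against SDS-free, where 4.36% passed. The comparisons share libraries, so these counts are not independent.

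The members' median log2 difference was 0.06 for SDS-free minus SDS, 0.00 for unpurified minus SDS and −0.04 for unpurified minus SDS-free. Over all tested genes it was 0.04, 0.02 and −0.02. The first members' median was 0.03 without SDS-free replicate 1, 0.10 without SDS replicate 1 and 0.01 after centring each library on its median. The sign of the last 2 members' medians depended on single libraries or on the scaling. Unpurified minus SDS-free was 0.02 without SDS-free replicate 1, 0.01 without unpurified replicate 1 and −0.13 without SDS-free replicate 2. Unpurified minus SDS was −0.03 after the same centring. With all 6 libraries, PSMA4, an alpha-ring subunit, had the largest difference from SDS in both SDS-free protocols. Its fold enrichment was 5.43 and 4.90 with SDS, 8.24 and 7.74 with the SDS-free buffer, and 6.38 and 8.82 without purification, and the SDS libraries were below the other 4. The log2 difference was 0.63 ± 0.18 (SE) for SDS-free minus SDS (limma adjusted p = 0.736, Benjamini-Hochberg) and 0.54 ± 0.18 for unpurified minus SDS (limma adjusted p = 0.826). Without unpurified replicate 2 the latter was 0.31 and no longer the largest, since members then ran from −0.57 to 0.56. For SDS-free minus SDS, members reached 0.77 without SDS replicate 2, while PSMA4 reached at most 0.70 without any 1 library. For unpurified minus purified SDS-free, PSME4 had the largest difference, 0.46 ± 0.16 (limma adjusted p = 0.999). The peak shared by PSMB8 and PSMB9 differed by −0.50 ± 0.16 between SDS-free and SDS (limma adjusted p = 0.746). None of these passed the threshold.

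**Figure D4:**
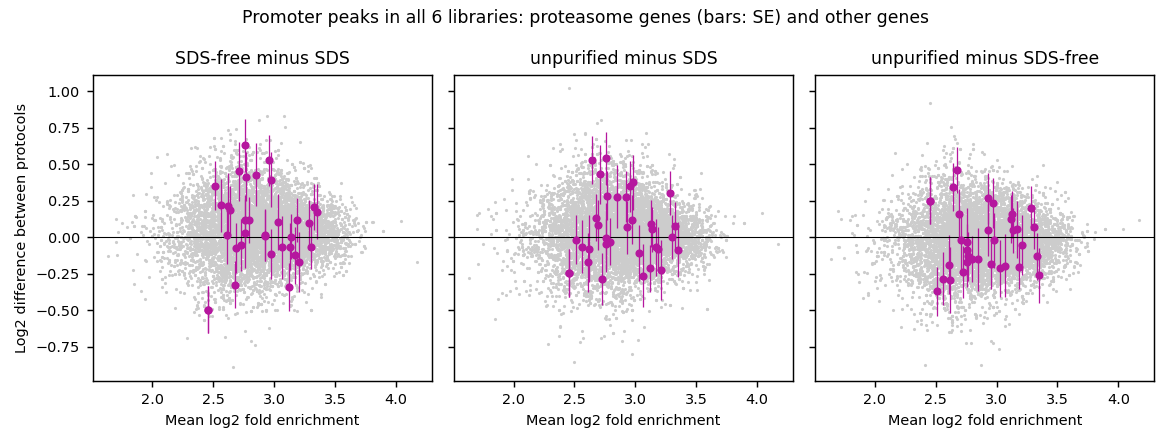
Log2 difference in fold enrichment between protocols (vertical axis) against the mean log2 fold enrichment over 6 libraries (horizontal axis), for 34 proteasome genes (purple, bars are the SE) and the other tested genes (grey) in the 3 comparisons. The proteasome genes run from −0.50 to 0.63 in the left panel and lie within the cloud of other genes in all 3.

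The pooled SD of log2 fold enrichment between replicates had a median of 0.18 over the 34 members (0.07 to 0.37) and 0.16 over all genes. It was 0.20 for PSMA4, 0.13 for PSME4 and 0.14 for the peak of PSMB8 and PSMB9, below the differences named for them. PSMA4 and PSME4 were named for their large differences, so this comparison does not test those differences. The range of the 3 protocol means had a median of 0.27 for members and 0.20 for all genes.

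At the gene start, presence in both libraries of 1 protocol and absence from both of another was found for 1 member. PSMD4, a ubiquitin receptor of the 19S cap, had a peak in both SDS and both unpurified libraries and in neither SDS-free library. Such a pattern, present in both SDS libraries and in neither SDS-free one, held for 0.385% of all genes, and present in both unpurified and in neither SDS-free for 0.666%. The PSMD4 peaks had 14 and 20 reads at the summit with SDS (95% Poisson intervals 7.65 to 23.5 and 12.2 to 30.9) and 24 and 26 without purification (15.4 to 35.7 and 17.0 to 38.1). At the gene start, no member was present in both libraries of 1 protocol and absent from both of the other in the comparison of unpurified with SDS, where 1.00% and 0.276% of genes were. Nor was any present in both SDS-free libraries and absent from both SDS or both unpurified libraries, where 0.697% and 0.338% of genes were. At the canonical start, 2 more members joined PSMD4, whose patterns held there for 0.374% and 0.692% of genes. PSME3 was present in both SDS and both SDS-free libraries and in neither unpurified one, as were 0.302% and 0.369% of genes. PSMC2 was present in both unpurified libraries and in neither SDS one, as were 1.12% of genes, and it also had a peak in SDS-free replicate 1.

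Summits of the members lay just upstream of the canonical start, with medians of −106 to −73 bp per library, against −83 to −77 bp for all genes. Within 200 bp of the start lay 77.3% to 84.4% of the members' summits and 76.1% to 77.2% of all. Of the 39 members with a peak in all 6 libraries, 3 had the summit more than 500 bp from the canonical start in every library (7.69%, against 3.38% of all such genes). These were PSMB8, PSMB10 and PSMB1. PSMB1, a structural beta subunit, had its summit 954 to 977 bp upstream, and the gene start of TBP, which runs the other way, lies 995 bp upstream. Its 8.02 to 10.3-fold enrichment therefore cannot be told apart from that of the TBP promoter. Counting canonical starts only, a start of another gene on the opposite strand lay within 1 kb for 9 of 49 members (18.4%), against 10.1% of all genes. This leaves out PSMB1, PSMB8, PSMA1 and PSMG4. Their neighbours TBP, PSMB9, PDE3B and TUBB2B, in that order, lie within 1 kb by outermost starts alone.

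**Figure D5:**
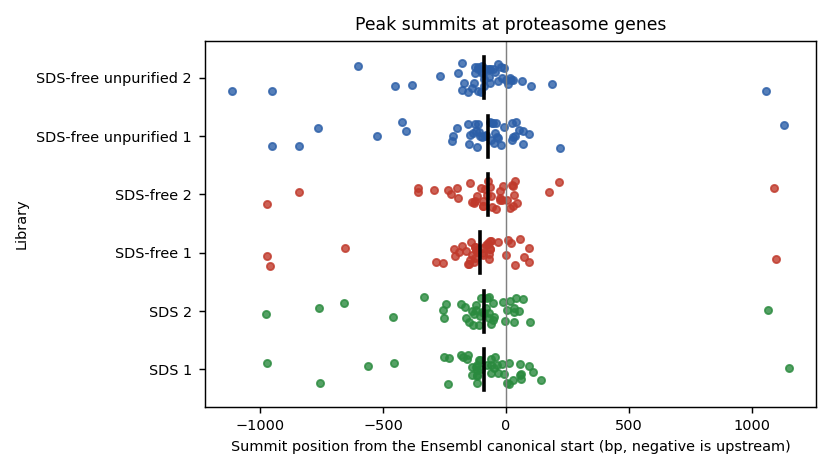
Distance of the summit of the strongest peak from the canonical start (horizontal axis, bp, negative is upstream) for each proteasome gene with a peak, 1 row of points a library, shifted vertically for legibility. Black bars are medians, between −106 and −73 bp, and the point beyond +1000 bp in every row is PSMB10.

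In the 300 bases around the canonical start the members had a median GC content of 62.0%, against 63.7% for all genes, and a CpG observed-to-expected ratio of 0.817, against 0.778. Among genes with a peak in all 6 libraries at that start, both were lower in members, at 63.3% against 66.7% GC and 0.795 against 0.881 for CpG. Interferon letters occurred in 12.2% of members and 3.30% of all genes, antioxidant letters in 63.3% and 42.1%, and ETS letters in 40.8% and 14.1%. CCAAT occurred in 42.9% and 35.7%, AAGATGGCG (YY1) in 8.16% and 2.85%, and the NRF1 site in 2.04% and 1.71%. Around the gene start the shares were 10.2% and 3.49% for interferon, 67.3% and 41.5% for antioxidant and 26.5% and 11.9% for ETS letters, 42.9% and 35.5% for CCAAT, 4.08% and 1.89% for YY1, and 2.04% and 1.49% for the NRF1 site. Among genes with a peak in all 6 libraries at the canonical start, the shares in members and all genes were 12.8% and 2.62% for interferon, 64.1% and 44.3% for antioxidant and 41.0% and 23.1% for ETS letters, and 7.69% and 4.87% for YY1. There CCAAT (38.5% and 40.7%) and the NRF1 site (2.56% and 3.19%) were less frequent in members. A match is a description of letters, and no test was made. PSMB11 and PSMA8, without peaks, each held an antioxidant match, and PSMA8 also held ETS letters.

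Of 23 other genes of the pathway, 21 had a gene-start peak in all 6 libraries, beside 41.0% of all genes. All 14 shuttle receptors, ligases and cofactors had one, among them USP14, a deubiquitinase of the 19S cap, with a fold enrichment of 10.1 to 12.2, and ECPAS, a proteasome adaptor, with 4.25 to 5.99. So did the assembly factors POMP and PAAF1. Of the 7 regulators of proteasome transcription, NFE2L1, NFE2L2, MAFG, the protease DDI2 and the glycanase NGLY1 had a peak in all 6. NFE2L1 had 6.20 and 5.67 with SDS, 7.19 and 7.20 with the SDS-free buffer, and 7.39 and 7.55 without purification, so that the SDS libraries were lowest. MAFK had a peak in 3 libraries, and MAFF had none at its gene start and a peak in 2 libraries at its canonical start.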

How the data were processed

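Peak lists of 6 bulk ATAC-seq libraries were used, 2 for each of 3 protocols, grouped by the sample labels. Per the methods, the authors mapped reads to hg19 with Bowtie2 (version 2.1.0 per the submitters' processing notes), removed duplicate reads with Picard 1.79 and mitochondrial reads, and called narrow peaks in MACS2 (q-value threshold 0.01; its version is not given in the sources used here). Per the methods, samples of 1 condition were merged for calling, whereas the lists are 1 per library. The methods give the detergent, EDTA and centrifugation steps for bulk Pi-ATAC, and the labels give them for all libraries, so whether the protocols differed in them is unclear. The deposited lists hold a score, which is 10 times the −log10 q, a fold enrichment, and the −log10 of p and q. The fold enrichment is the ratio of the summit to local background, with 1 added to each by the caller. Fold enrichment is scaled within a library by the authors' caller. No read totals are in the lists, so depth was read from the recovered background.

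Gene starts came from GENCODE version 44 on GRCh37, the same build as hg19, and all peak ends lay within its chromosomes. A gene was called where at least 1 bp of a peak lay within 1 kb of its start, and its value was the strongest peak by −log10 q. For 251 genes without a canonical transcript the gene start was used. Overlaps were checked against bedtools 2.31.1. The log2 fold enrichment, with no further pseudocount, was fitted in limma 3.58.1 (R 4.3.3) over all genes with a peak in all 6 libraries, the 3 groups sharing 1 spread. The fit was tested on simulated data. Shares were compared by exact permutation over libraries. Python 3.11.15, NumPy 2.4.6, pandas 2.3.3 and SciPy 1.17.1 were used.

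The members and lists were chosen with earlier results of these data known. Named genes were those lacking a peak in a library, the exchangeable catalytic subunits and their counterparts, the activators and inhibitor, the 3 highest and 3 lowest by mean log2 fold enrichment, the largest difference for each pair of protocols, the symbols that are not subunits, PSMD4 and TAP1. 1 lineage marker is not reported here. PSMB1 and the examples of other pathway genes were named after their values were seen. Alternatives were other windows, starts, peak thresholds and overlap rules, an equal number of peaks, summit reads, centring, a replicate block, and leaving out each library. The canonical start was added after the data were examined.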

Additional observations from a re-analysis of the deposited data

How the results depend on the processing

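The differences in percent of members with a peak and the immunoproteasome difference kept their direction under every alternative run, except that SDS-free minus SDS in percent, −3.06 points, was 1.02 without SDS-free replicate 2 and 0 without SDS replicate 1. With 2 libraries a protocol the percent differences could pass no threshold, and the immunoproteasome difference was not tested against one. Over all alternatives, the members' median log2 difference for SDS-free minus SDS, 0.06, was 0.01 to 0.10. That for unpurified minus SDS, 0.00, was −0.05 to 0.08. That for unpurified minus SDS-free, −0.04, was −0.13 without SDS-free replicate 2, 0.02 without SDS-free replicate 1 and 0.01 without unpurified replicate 1. The cause was not tested. Leaving out 1 library at a time gave 34 to 35 members with a peak in every library, −7.14 to 1.02 points for SDS-free minus SDS, 1.02 to 7.14 for unpurified minus SDS, 3.06 to 11.2 for unpurified minus SDS-free, and −0.37 to −0.23 on the log2 scale for the immunoproteasome against the constitutive subunits. Where 1 library of a protocol was left, limma assumed that it varies like the other groups. Under the other alternatives the count was 31 to 40, and the immunoproteasome difference was −0.31 to −0.07. The difference of PSMA4 between SDS-free and SDS was 0.58 to 0.64, and that of PSMB8 was −0.67 to −0.50. Leaving out 1 library at a time, they were 0.56 to 0.70 and −0.66 to −0.33, unpurified minus SDS at PSMA4 was 0.31 (without unpurified replicate 2) to 0.77 (without unpurified replicate 1), and unpurified minus SDS-free at PSME4 was 0.41 to 0.51. No gene was called in any of the 3 comparisons under any alternative run in limma. Replicate numbers are shared by the protocols. Gene by gene, replicate 1 minus replicate 2 was not correlated between protocols (r = 0.02, −0.03 and 0.01 over 7889 genes). These correlations take out any shift of a whole library and carry counting error. In each protocol replicate 1 had more peaks than replicate 2 (37654 and 34826 with SDS, 38023 and 30136 SDS-free, 36252 and 34438 unpurified). Whether libraries of the same number shared a culture or batch was not tested. With the replicate block limma called 0 members, and 7, 3 and 2 had an unadjusted p under 0.05, in place of 6, 2 and 2. The differences in percent were −3.06, 4.08 and 7.14 points within the pairing, as without it. A mean of paired differences always equals the difference of the means, so this does not test the pairing. Members with a peak had a median of 23.5 to 29 reads at the summit per library, and the part of counting error in missing peaks was not tested.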
